A study of Homo sapiens with 24 samples.

Results

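The 43 genes described here act in DNA repair: homologous recombination, the Fanconi anaemia pathway, mismatch repair, end joining, single-strand break repair and the checkpoint that reads DNA damage. They were chosen by symbol from these pathways, and each of the 43 symbols matched a single identifier among the 58676 of the deposited gene count file. Their RNA was measured in HSJD-DIPG-007, an established cell line of diffuse midline glioma (DMG), a brainstem tumour of childhood, grown as spheroids and labelled with the genotype H3F3A K27M, ACVR1 R206H and PIK3CA MIS, which all 24 libraries share. Spheroids received vehicle or LLY-283, an inhibitor of the arginine methyltransferase PRMT5, at its GI40, the concentration that inhibits growth by 40%, and RNA was taken at days 0, 1, 2, 3, 5, 7 and 10. Each treatment group had 3 libraries at days 0 and 5, 2 at day 7 and 1 at each other day, and the libraries of a group were technical repeats of this line, so p-values measure the spread between repeats, not between independent cultures. The labels give a single dose, whereas the study's methods describe a second dose with fresh medium after day 5.

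A break through both DNA strands can be repaired accurately from the sister copy by homologous recombination, after its ends have been trimmed and coated with replication protein A, or can be rejoined directly by the end joining kinase and its Ku partners. Crosslinks between strands are handled by the Fanconi pathway, in which a core complex attaches ubiquitin to the FANCD2 and FANCI pair and so recruits the recombination proteins. Many of these genes are transcribed most strongly in S phase, when E2F factors drive the genes of DNA replication, so their RNA levels in a culture usually follow the share of cells that replicate.

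Library totals lay between 13835205 and 23190369 estimated counts, with a median of 18688160.5, and the lowest count of any member was 138 for FANCB, so all 43 members passed the filter on low counts in every comparison. Levels are given as CPM, counts scaled to a common library size, with TMM factors over the 24 libraries. The glial progenitor markers were present, summing to 8585 to 9885 CPM over 10 genes, although SOX10 did not exceed 0.603 CPM in any library. Microglia and leukocyte markers summed to at most 1.92 CPM, with TYROBP at 0, and 6 of 7 endothelial markers were under 1 CPM in every library. The 8 neuron markers, of which NEFL was at 0 and 4 were under 1 CPM in every library, summed to 109.6 to 114.5 CPM in the vehicle libraries of day 5 and to 157 to 167 CPM in the LLY-283 libraries, without overlap. Of the 4 tested at day 5, 2 were higher with LLY-283 and 0 lower, with a median log2 fold change of 0.30, and their part in the results of day 5 was not tested. Fibroblast markers summed to 378 CPM in vehicle repeat 3 of day 5, against 218 and 226 CPM in the other vehicle libraries and 299.5 to 301 CPM in the LLY-283 libraries of that day. Of the 8 tested at day 5, 3 were higher with LLY-283 and 0 lower, with a median log2 fold change of -0.38. Of 9 glial progenitor markers tested, 4 were higher and 2 lower, with a median of 0.07. Over all genes tested 12% were higher and 14.1% lower. At day 7 the libraries labelled repeat 2 stood apart from repeat 1 of their own group, with a chi-square per degree of freedom of 11.2 for vehicle and 13.4 for LLY-283, against 1.65 to 3.79 between repeats of days 0 and 5. The library labelled LLY-283 repeat 2 differed from vehicle repeat 1 by 2.93 on this measure, within the range between repeats of days 0 and 5. The library labelled vehicle repeat 2 differed by at least 10.57 from each of the other day 7 libraries. In log2 CPM the root mean square difference of LLY-283 repeat 2 from vehicle repeat 1 was 0.403. For the other pairs of day 7 libraries it was 0.451 to 0.496. In the same measure, vehicle repeat 1 lay 0.3022 from the vehicle mean of day 5 and 0.4136 from the LLY-283 mean of day 5. In that order the values were 0.3737 and 0.375 for vehicle repeat 2. For LLY-283 they were 0.3805 and 0.2989 in repeat 1 and 0.3018 and 0.4318 in repeat 2. Whether labels were exchanged was not tested. Results of day 7 are therefore given by label and by repeat. In bulk RNA, fewer cells of a type and less RNA per cell cannot be told apart.

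The sequence before the start of transcription is shown first for 8 members, because E2F letters are a known feature of the promoters of many S phase genes. RefSeq promoters (GRCh38.p14) were found for 35 of the 43 members, and not for RECQL4, NBN, XRCC5, FANCI, RPA2, RAD54B, PRKDC and RPA3. Each was searched on both strands, from 250 bases before the start to 50 after it, for TTTCCCGC, TTTGGCGC, TTTCGCGC and TTTGCCGC as E2F letters, for TTTGAA as the CHR element of mitotic genes and for the letters CCAAT. E2F letters were present for 9 of 35 members (25.7%), against 3.99% of all 27305 genes with a promoter and 3.31% of all 35116 promoters. Of the 19 members with a promoter that were lower with LLY-283 at day 5, 6 held them (EXO1, MSH6, FANCD2, TOPBP1, XRCC2 and XRCC6), as did 3 of the 16 others (FANCA, FANCC and PMS2). TTTGAA was found for 3 of 35 members, against 18.2% of genes, and CCAAT for 18 of 35, against 39.7% of genes. The windows below run from 90 bases before the start to 30 after it, are written on the strand of the gene and carry the E2F match, read on either strand, in capitals. They lie at chr1:241848114-241848233, chr2:47783055-47783174 and chr3:10026347-10026466 on the plus strand, and at chr3:133661912-133662031, chr7:152676112-152676231, chr9:95317680-95317799, chr7:6009077-6009196 and chr2:58241296-58241415 on the minus strand. The first 5 were lower at day 5, FANCC and PMS2 hold E2F letters and passed no test at day 5, and FANCL had the largest difference at day 5 and holds none.
EXO1: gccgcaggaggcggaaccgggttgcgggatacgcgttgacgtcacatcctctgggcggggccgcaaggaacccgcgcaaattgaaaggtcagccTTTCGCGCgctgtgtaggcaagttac
MSH6: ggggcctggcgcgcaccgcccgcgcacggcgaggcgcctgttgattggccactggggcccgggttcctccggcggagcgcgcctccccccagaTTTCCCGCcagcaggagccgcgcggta
FANCD2: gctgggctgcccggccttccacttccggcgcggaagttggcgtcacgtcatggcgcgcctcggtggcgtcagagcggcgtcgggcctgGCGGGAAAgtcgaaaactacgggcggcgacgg
TOPBP1: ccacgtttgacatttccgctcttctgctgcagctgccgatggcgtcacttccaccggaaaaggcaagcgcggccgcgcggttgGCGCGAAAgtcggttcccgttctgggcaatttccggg
XRCC2: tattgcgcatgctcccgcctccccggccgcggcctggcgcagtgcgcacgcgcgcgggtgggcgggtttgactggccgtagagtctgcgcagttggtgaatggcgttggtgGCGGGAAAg
FANCC: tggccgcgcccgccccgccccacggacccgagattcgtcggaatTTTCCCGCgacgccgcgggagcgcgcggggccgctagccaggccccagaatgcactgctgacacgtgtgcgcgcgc
PMS2: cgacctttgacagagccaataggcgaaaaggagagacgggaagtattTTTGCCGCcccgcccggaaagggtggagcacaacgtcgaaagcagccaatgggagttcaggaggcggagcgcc
FANCL: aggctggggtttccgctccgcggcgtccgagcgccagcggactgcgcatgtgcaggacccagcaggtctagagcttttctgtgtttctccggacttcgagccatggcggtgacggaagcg
These matches are counts of letters in a window, and no test was made on them.

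The comparison of LLY-283 with vehicle at day 5 asks which repair genes differ once the inhibitor has acted for several days. Falls and rises in this comparison are differences from vehicle on that day, not changes over time. Of the 43 members, 24 were lower with LLY-283 (55.8%), 1 was higher and 18 did not pass the test, while 14.1% of the 16491 genes tested were lower and 1987 (12%) were higher (edgeR quasi-likelihood test, adjusted p under 0.01). The median log2 fold change of the members was -0.18, against 0.02 over all genes tested, and 35 of 43 were below 0, against 47.1% of all genes. In either direction 26.1% of all genes were called. Log2 fold changes of the members ran from -0.42 for FANCL to 0.18 for XRCC1. The 3 LLY-283 libraries lay below the 3 vehicle libraries for 29 members, against 25.6% of all genes, and above them for 3, against 20.8% of all genes. With library sizes alone in place of TMM, 18 members were lower and 2 higher, where 11.2% of all genes were lower and 2274 of 16491 higher. The median of the members was then -0.15, against 0.05 over all genes.

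**Figure D1:**
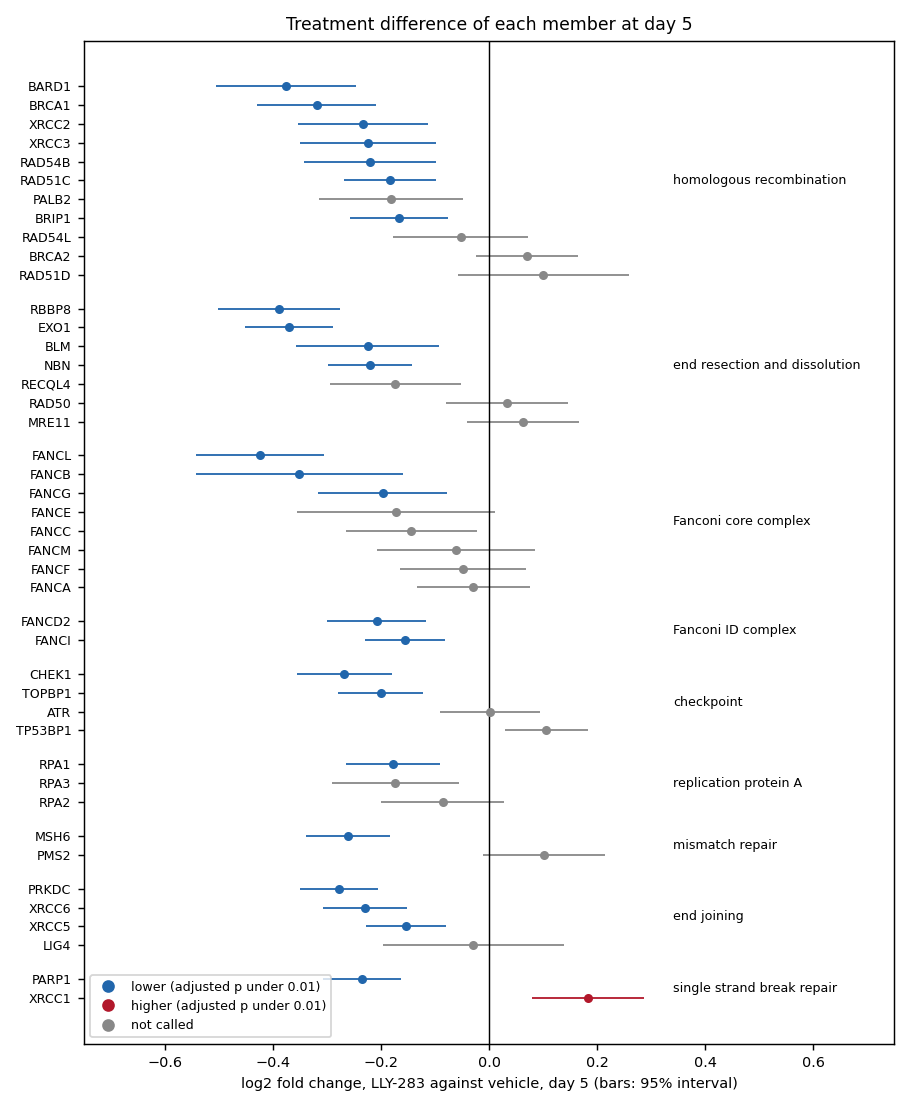
Log2 fold change of LLY-283 against vehicle at day 5 for the 43 members, grouped by role, with 95% intervals from edgeR; blue points were lower, red higher and grey not called. The 24 lower members spread over every group, from -0.42 for FANCL to -0.15 for XRCC5, and XRCC1 at 0.18 is the only member called higher.

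Among 11 genes of homologous recombination, 7 were lower. BRCA1, the ubiquitin ligase that directs breaks into recombination, stood at 48.3, 49.1 and 45.4 CPM in the vehicle libraries and at 38.2, 36.3 and 38.04 CPM with LLY-283. BARD1, its obligate partner, stood at 31.4, 29.8 and 32.5 CPM in vehicle and at 24.3, 23.5 and 23.2 CPM with LLY-283. Both partners were thus lower in each LLY-283 library than in any vehicle library. BRCA1 fell by 0.32 ± 0.05 (SE, n = 3 and 3; edgeR adjusted p = 2.6e-05) and BARD1 fell by 0.38 ± 0.06 (edgeR adjusted p = 2.5e-05) on the log2 scale. BRCA2, a mediator of recombination, did not pass the test, at 0.07 with a 95% interval of -0.03 to 0.17 and overlapping libraries. PALB2, which links BRCA1 to BRCA2, was at -0.18 with an edgeR adjusted p of 0.029. RAD51C, a recombination factor, stood at 100.01, 97.2 and 101 CPM in vehicle and at 90.5, 85.8 and 81.9 CPM with LLY-283, a log2 fold change of -0.18 ± 0.04 (edgeR adjusted p = 0.00088). The recombination factors XRCC2 (-0.23) and XRCC3 (-0.22) were lower too, and so were the helicase BRIP1 (-0.17) and the translocase RAD54B (-0.22), whereas RAD51D (0.10) and the translocase RAD54L (-0.05) did not pass. XRCC3 shares 5756 of 7507 exon bases with KLC1 on the other strand and RAD54B shares 3511 of 5319 with FSBP on its own strand, so their counts may include reads of the neighbour. When 1 library was left out, the call was lost for XRCC2 (vehicle repeats 2 or 3, LLY-283 repeats 1 or 2; edgeR adjusted p up to 0.015), XRCC3 (repeats 1 or 2 of either group; up to 0.022), RAD54B (repeats 2 or 3 of either group; up to 0.031), BRIP1 (vehicle repeat 1 or LLY-283 repeat 2; up to 0.022) and RAD51C (LLY-283 repeat 3; 0.012), at log2 fold changes of -0.23 to -0.16. PALB2 passed without vehicle repeat 2 (-0.25, edgeR adjusted p = 0.007).

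Of 7 genes that trim broken ends or resolve joined strands, 4 were lower. RBBP8, which encodes CtIP, the factor that starts trimming, stood at 55.9, 50.8 and 57.5 CPM in vehicle and at 42.9, 39.1 and 41.1 CPM with LLY-283. EXO1, the exonuclease that extends it, stood at 109.3, 112 and 107.5 CPM in vehicle and at 83.8, 83.6 and 82.0 CPM with LLY-283. The groups did not overlap for either gene, and EXO1 varied little within each. RBBP8 (chr18:22798261-23026488) fell by 0.39 ± 0.05 (edgeR adjusted p = 2.2e-06) and EXO1 (chr1:241847967-241895148) by 0.37 ± 0.04 (edgeR adjusted p = 2.2e-08) on the log2 scale. Of the 3 subunits of the break sensor, NBN was lower. It stood at 141, 138 and 143 CPM in vehicle and at 119, 121 and 115 CPM with LLY-283 (-0.22 ± 0.04, edgeR adjusted p = 3.3e-05), while MRE11, its nuclease, was at 0.06 (95% interval -0.04 to 0.17) and RAD50, its ATPase, at 0.03 (95% interval -0.08 to 0.15). The interval of NBN, -0.30 to -0.14, does not reach those of its partners, although the differences between the subunits were not tested. RAD50 shares 8124 of 10565 exon bases with a read-through gene on its own strand. The helicase BLM was lower (-0.23), a call lost without repeat 1 or 3 of either group and at -0.15 without vehicle repeat 1 (edgeR adjusted p = 0.076), and RECQL4, another helicase of its family, was at -0.17 with an edgeR adjusted p of 0.022.

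The Fanconi core complex had 3 lower members among 8. FANCL, the subunit that carries the ubiquitin ligase activity, stood at 49.5, 45.1 and 50.8 CPM in vehicle and at 36.1, 33.4 and 36.7 CPM with LLY-283. It lies at chr2:58159243-58241410 and showed the largest difference of all members, a fall of 0.42 ± 0.06 on the log2 scale (edgeR adjusted p = 1.3e-06). FANCB, which holds FANCL in the complex and has the lowest counts of the members, stood at 13.6, 13.1 and 14.1 CPM in vehicle and at 10.8, 10.4 and 10.2 CPM with LLY-283 (-0.35 ± 0.09, edgeR adjusted p = 0.0039). The call of FANCB was lost when vehicle repeat 1 or 3 or LLY-283 repeat 2 or 3 was left out (-0.37 to -0.33, edgeR adjusted p up to 0.017). FANCG (-0.20, edgeR adjusted p = 0.0086) was near the threshold, and its call was lost when any library other than vehicle repeat 3 was left out (-0.21 to -0.16, edgeR adjusted p up to 0.057). FANCA, the core subunit with the highest counts, stood at 72.4, 72.2 and 70.5 CPM in vehicle and at 63.5, 71.0 and 72.4 CPM with LLY-283, and these overlap (-0.03 ± 0.05, edgeR adjusted p = 0.69). The adaptor subunits FANCE (-0.17), FANCC (-0.14) and FANCF (-0.05) and the DNA translocase FANCM (-0.06) did not pass the test either. Both substrates of the core complex were lower. FANCI stood at 232, 235 and 220.3 CPM in vehicle and at 205.5, 200.2 and 200.2 CPM with LLY-283 (-0.16 ± 0.04, edgeR adjusted p = 0.001), and FANCD2 was at -0.21 (edgeR adjusted p = 0.00043). Without vehicle repeat 2, FANCI was at -0.15 and missed the threshold (edgeR adjusted p = 0.012).

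**Figure D2:**
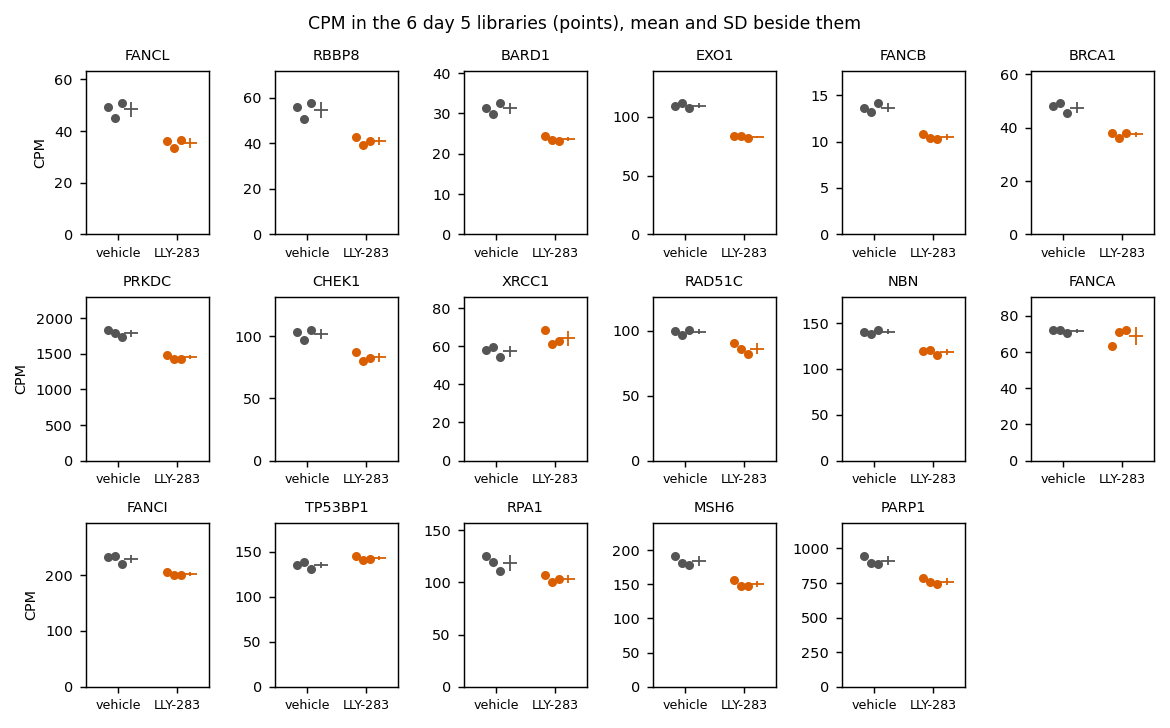
CPM in each of the 3 vehicle (grey) and 3 LLY-283 (orange) libraries of day 5 for the 17 members described by library, with the mean and SD beside the points and each axis starting at 0. Libraries of the treatment groups do not overlap except for FANCA, and XRCC1 and TP53BP1 are the panels in which LLY-283 lies higher.

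In the checkpoint, CHEK1, the kinase that slows the cell cycle when replication stalls, stood at 103, 97.1 and 105 CPM in vehicle and at 87.1, 80.2 and 82.0 CPM with LLY-283. It fell by 0.27 ± 0.04 on the log2 scale (edgeR adjusted p = 1.3e-05), and TOPBP1, which activates the kinase above it, fell by 0.20 (edgeR adjusted p = 0.00012). ATR, that upstream kinase, was at 0.00 with a 95% interval of -0.09 to 0.09, and its sign changed with the scaling. TP53BP1, which protects broken ends from trimming, stood at 136, 138 and 131 CPM in vehicle and at 146, 141 and 142 CPM with LLY-283. Those libraries do not overlap, but the difference of 0.11 ± 0.04 missed the threshold (edgeR adjusted p = 0.026), and 3732 of its 12976 exon bases are shared with TUBGCP4 on the other strand. Of the 3 subunits of replication protein A, RPA1, the largest, stood at 126, 119 and 111 CPM in vehicle and at 107, 99.98 and 103 CPM with LLY-283 (-0.18 ± 0.04, edgeR adjusted p = 0.0016), while RPA3 (-0.17, edgeR adjusted p = 0.018) and RPA2 (-0.09) did not pass. RPA1 lost its call without vehicle repeat 1 or LLY-283 repeat 2 (edgeR adjusted p = 0.018, -0.16 to -0.15), and RPA3 passed without LLY-283 repeat 1 (-0.23, edgeR adjusted p = 0.0029).

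MSH6, which recognises mismatches, stood at 192, 181 and 178 CPM in vehicle and at 156, 148 and 148 CPM with LLY-283, a fall of 0.26 ± 0.04 on the log2 scale (edgeR adjusted p = 3.3e-06), and 4022 of its 17722 exon bases are shared with FBXO11 on the other strand. PMS2, which nicks the strand to be repaired, was at 0.10 and did not pass, and its value is uncertain because reads can be shared with pseudogenes such as PMS2CL, which had a mean count of 475 beside 785 for PMS2. PRKDC, the catalytic kinase of end joining, stood at 1842, 1789 and 1735 CPM in vehicle and at 1483, 1435 and 1433 CPM with LLY-283. It was lower than in vehicle by 0.28 ± 0.03 (edgeR adjusted p = 3.8e-07), and its DNA-binding partners XRCC6 and XRCC5 were lower by 0.23 (edgeR adjusted p = 2.2e-05) and 0.15 (edgeR adjusted p = 0.0012). The call of XRCC5 was lost without vehicle repeat 3 or LLY-283 repeat 2 or 3 (-0.14 to -0.13, edgeR adjusted p up to 0.021). LIG4, the ligase of this pathway, was at -0.03 with a 95% interval of -0.20 to 0.14. PARP1, which senses nicks in DNA, stood at 947, 898 and 891 CPM in vehicle and at 785, 758 and 740 CPM with LLY-283, a fall of 0.24 ± 0.04 (edgeR adjusted p = 4.7e-06). XRCC1, the scaffold that PARP1 recruits, went the other way, with 58.2, 59.7 and 54.1 CPM for vehicle and 68.8, 61.2 and 62.6 CPM for LLY-283. Its rise of 0.18 ± 0.05 (edgeR adjusted p = 0.0051) lost the call when repeat 1 or 3 of either group was left out (0.13 to 0.19, edgeR adjusted p up to 0.056) and with DESeq2. Of the 2745 exon bases of XRCC1, 224 are shared with a gene on its own strand, and 482 and 68 with genes on the other strand. With DESeq2, 18 members were lower, where 11.6% of all genes were lower. BRIP1, XRCC3, RAD54B, BLM, FANCB and FANCG lost the call there (DESeq2 adjusted p of 0.014 to 0.038). By contrast, 10 of the 24 lower members kept the call in every alternative setting tried: BARD1, NBN, RBBP8, EXO1, FANCL, CHEK1, MSH6, XRCC6, PRKDC and PARP1. The share of all lower genes that did so is not given here, so the 10 cannot be set against it. Without vehicle repeat 3, the library with the highest fibroblast markers, 19 members were lower and 0 were higher, where 11.6% of all genes were lower and 1575 of 17237 higher. Leaving out any library of day 5 gave 16 to 21 lower members.

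The libraries of day 0, in both groups taken after 0 days of treatment by the study's description, give the background of this comparison. At day 0, 0 of 43 members were called by edgeR, and 0 had an unadjusted p under 0.05, while 0.0169% of 17780 genes were called, 3.32% were lower and 2.37% higher at that unadjusted p, and DESeq2 also called 0 members. The 3 LLY-283 libraries lay above the vehicle libraries for 3 members and below them for 0, against 7.06% and 4.85% of all genes.

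Over 5 days in vehicle, repair genes moved in both directions, mostly upwards in the main fit. Against vehicle at day 0, 15 members were higher and 5 lower at day 5, where 22.2% of 17106 genes were higher and 16.7% lower, and the median log2 fold change was 0.08, against -0.02 over all genes. With library sizes alone the split was 9 higher and 9 lower, where 3039 of 17106 genes were higher and 20.7% lower. The median was then 0.03 for the members and -0.07 over all genes. The balance of directions thus depends on the scaling for members and for all genes alike. FANCI rose from 157, 157 and 153 CPM at day 0 to 232, 235 and 220.3 CPM at day 5 (0.54 ± 0.04, edgeR adjusted p = 1.6e-12). RAD54B rose from 23.7, 27.6 and 28.4 CPM to 39.5, 45.9 and 45.4 CPM (0.70 ± 0.07, edgeR adjusted p = 2e-08), and FANCM rose by a log2 fold change of 0.60, RPA3 of 0.34 and RAD54L of 0.29. In the opposite direction, FANCE fell from 25.4, 25.8 and 26.6 CPM to 18.1, 18.1 and 15.4 CPM (-0.60 ± 0.07, edgeR adjusted p = 8.2e-08). RAD51D (-0.53), NBN (-0.35), RPA2 (-0.19) and PMS2 (-0.19) were the others that fell, of which RPA2 missed the threshold when any library but day 0 repeat 1 was left out (-0.20 to -0.16, edgeR adjusted p up to 0.035) and PMS2 without day 0 repeat 2 or day 5 repeat 2 or 3 (-0.18 to -0.14, edgeR adjusted p up to 0.066). The vehicle libraries of day 5 also carried more RNA of mitotic genes than those of day 0, with 25 of 25 G2/M genes higher and a median of 0.72, and the part of this in the repair genes was not tested.

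With LLY-283 more members fell than rose over the 5 days. Against LLY-283 at day 0, 17 members were lower and 5 higher, where 19.5% of 17341 genes were lower and 22.9% higher, and the median was -0.10, against 0.01 over all genes. FANCE fell from 25.9, 25.6 and 25.4 CPM to 14.8, 13.8 and 16.5 CPM (-0.75 ± 0.07, edgeR adjusted p = 3.4e-09) and NBN from 183, 175 and 174 CPM to 119, 121 and 115 CPM (-0.56 ± 0.03, edgeR adjusted p = 1.2e-12). RAD51D (-0.50), BRCA1 (-0.45) and RBBP8 (-0.40) completed the 5 largest falls. The 5 members that rose were FANCI (0.41), FANCM (0.40), RAD54B (0.38), RAD54L (0.30) and TP53BP1 (0.22). Of these members, FANCE, RAD51D and NBN were lower and FANCI, FANCM, RAD54B, RAD54L and TP53BP1 higher in vehicle too. The 2 comparisons use separate libraries, and 4 members were higher over time in vehicle and lower with LLY-283: EXO1, FANCL, PRKDC and PARP1. The share of all genes with both of these calls is not given here, so the 4 cannot be set against it. These calls were not kept throughout. In vehicle EXO1 missed the threshold without day 0 repeat 2 or 3 (0.13 to 0.15, edgeR adjusted p up to 0.013), FANCL without day 0 repeat 3 or day 5 repeat 1 or 3 (0.17 to 0.19, up to 0.019) and PARP1 without day 0 repeat 2 or day 5 repeat 1 (0.13 to 0.15, up to 0.015), and with LLY-283 PRKDC missed it without repeat 2 or 3 of day 0 or of day 5 (-0.10 to -0.09, up to 0.072). TP53BP1 missed it in vehicle without day 0 repeat 2 or 3 or day 5 repeat 1 or 2 (0.10 to 0.13, edgeR adjusted p up to 0.072). With library sizes alone EXO1, FANCL and PARP1 missed it in vehicle, and TP53BP1 did too (0.07).

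**Figure D3:**
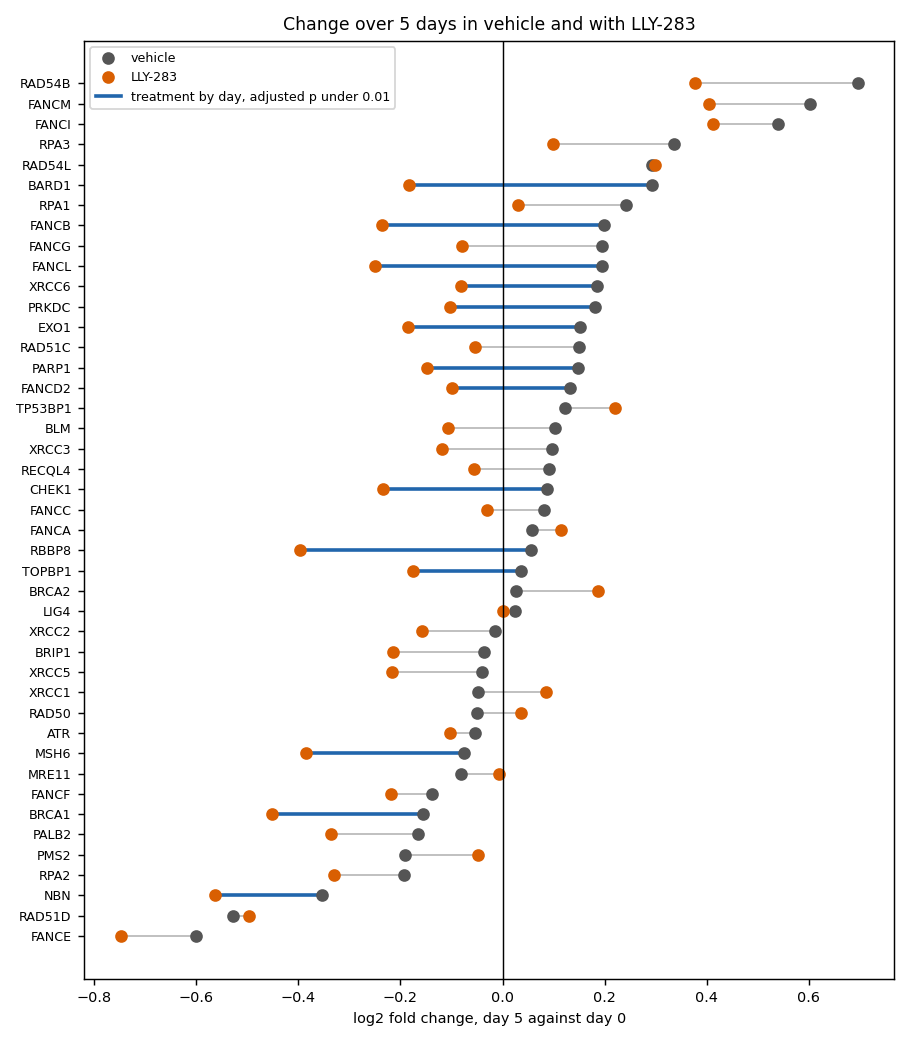
Log2 fold change from day 0 to day 5 for each member in vehicle (grey) and LLY-283 (orange), ordered by the vehicle value; thick blue lines mark the 14 members whose changes differed by the test of treatment by day. RAD54B, FANCM and FANCI lie right of 0 and FANCE, RAD51D and NBN left of 0 in both treatment groups. Of the 14 marked members, 11 lie right of 0 in vehicle and left of 0 with LLY-283, and 4 of these were called in both. The share of all genes called in both is not given.

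The difference between those changes was tested itself, as the interaction of treatment with day over the 12 libraries of days 0 and 5. It was lower for 14 members (32.6%) and higher for 0, where 8.15% of 18369 genes were lower and 6.78% higher. BARD1 (-0.47), RBBP8 (-0.45), FANCL (-0.44), FANCB (-0.43), EXO1 (-0.33), CHEK1 (-0.31) and MSH6 (-0.30) led, followed by BRCA1 (-0.29), PARP1 (-0.29), PRKDC (-0.28), XRCC6 (-0.26), FANCD2 (-0.22), NBN (-0.20) and TOPBP1 (-0.20). The day 5 libraries are those of the comparison at day 5, so this test is not independent of it. For 11 of the 14 the vehicle value was above 0 and the LLY-283 value below 0, and for BRCA1, NBN and MSH6 both were below 0. The 14 were picked by this difference, which favours opposite signs. Of the 11, only EXO1, FANCL, PRKDC and PARP1 were called in both treatment groups, a count without a share over all genes beside it. Without vehicle repeat 3 of day 5, 14 members were lower, where 6.96% of all genes were lower. FANCB lost the call when any of 7 libraries was left out, namely vehicle day 0 repeats 1 and 3, LLY-283 day 0 repeat 3, vehicle day 5 repeats 1 and 3 and LLY-283 day 5 repeats 2 and 3 (-0.45 to -0.40, edgeR adjusted p up to 0.023). FANCD2 lost it without vehicle repeat 1 of day 5, and without LLY-283 repeat 3 of day 0 or repeats 2 or 3 of day 5 (up to 0.026), NBN without LLY-283 day 0 repeat 1 or either day 5 repeat 3 (up to 0.016), and TOPBP1 without LLY-283 day 0 repeat 1 or day 5 repeat 2 (0.011). In a shared fit of the 22 libraries of days 0 to 7, whose day 7 repeats disagree, 0 members passed, where 0.135% of all genes were lower. The median of the members in that fit was -0.23. The lower members at day 5 numbered 11 in it, where 6.04% of all genes were lower. A shared fit of the 18 libraries up to day 5 gave 18 and 24, where 8.42% and 11.2% of all genes were lower.

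On days 1, 2, 3 and 10 each treatment group had 1 library, so the values have no replicate check. The median difference of the 43 members, LLY-283 less vehicle in log2 CPM, was 0.02 at day 0 and stayed near it at days 1 and 2, with -0.03 and -0.04. It was -0.16 at day 3 and -0.20 at day 5, and day 10 gave 0.01, while the median of all genes lay between -0.02 and 0.02. With library sizes alone, days 1, 2, 3 and 10 gave 0.0041, -0.009, -0.0952 and -0.007, so the signs of days 1 and 10 depend on the scaling. The median of all genes moved with the scaling too, to 0.0172, 0.0163, 0.0339 and -0.0149 on these days. At day 3, 30 of 43 members were below 0, against 53.4% of all genes. On that day FANCI had 244 CPM in the vehicle library against 185 in the LLY-283 library, EXO1 had 110 against 94.3 CPM, and PARP1 had 899 against 736 CPM. BRCA1, at 52.0 and 51.5 CPM, and CHEK1, at 95.4 and 95.6 CPM, were nearly level. At day 10 EXO1 had 77.9 CPM in the vehicle library against 80.8 in the LLY-283 library, and both libraries lay below all 6 libraries of day 0, which held 95.2 to 98.8 CPM. The median member stood 0.11 below day 0 in both day 10 libraries, on the log2 scale.

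**Figure D4:**
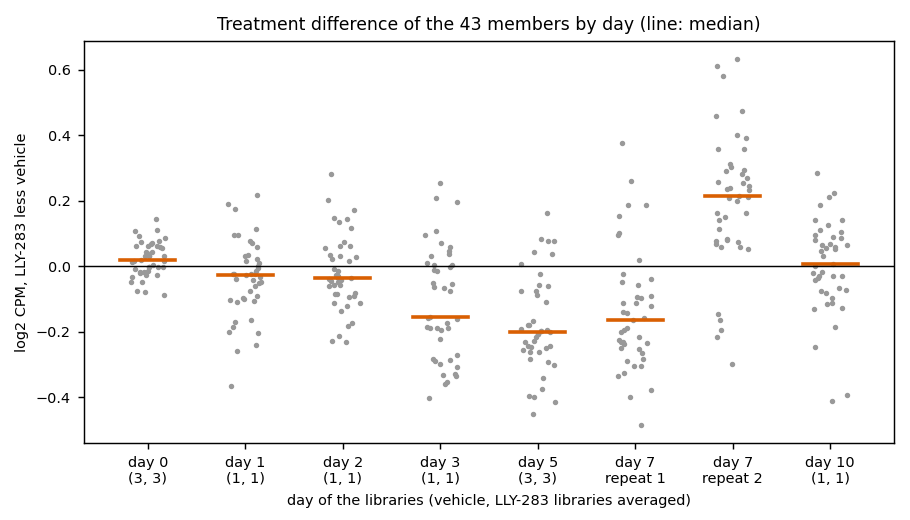
Difference in log2 CPM between LLY-283 and vehicle for each of the 43 members (points) by day, with the median as an orange line. Day 7 is split by repeat number, which did not pair the libraries of days 0 and 5. Days 1, 2, 3 and 10 have 1 library a group. The median is near 0 at days 0, 1 and 2, lies at -0.16 and -0.20 at days 3 and 5, and is -0.16 for repeat 1 and 0.21 for repeat 2 at day 7.

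By label, day 7 gave no member past the test: 0 of 43 were called and 0 had an unadjusted p under 0.05, while 0% of 16826 genes were called by edgeR, 0.327% of genes were lower and 1.08% higher at that unadjusted p, and DESeq2 called 3 genes and 0 members. Differences taken by repeat number went opposite ways. The repeat number did not pair the libraries of days 0 and 5, and another pairing of the day 7 libraries would give other differences. In repeat 1 the median member difference was -0.16 and 35 of 43 members were below 0, against 53% of all genes, and in repeat 2 it was 0.21 and 5 were below 0, against 51.5% of all genes. In repeat 1 EXO1 had 107 CPM in the vehicle library against 90.4 in the LLY-283 library, and in repeat 2 it had 89.9 against 118 CPM. BRCA1 followed the same pattern, with 46.9 and 40.4 CPM in repeat 1 and 36.2 and 54.1 CPM in repeat 2. Compared by number, the libraries labelled repeat 2 thus differ in sign from repeat 1 and from day 5 for these genes. A treatment difference at day 7 cannot be told apart from this disagreement of the repeats. In log2 CPM against day 0, the library labelled LLY-283 repeat 2 had a median of 0.12 for the 43 members. Its medians were 0.17 for the S phase genes and 0.77 for the G2/M genes. Vehicle repeat 1 had 0.03, 0.14 and 0.70 for these sets. LLY-283 repeat 1 had -0.07, -0.23 and 0.43 for the same sets, and the library labelled vehicle repeat 2 had -0.06, -0.04 and 0.54. Leaving out a day 7 library leaves 1 in its group, so only the median log2 fold change of the members is given. It was 0.13 without vehicle repeat 1 and 0.12 without LLY-283 repeat 1. Without vehicle repeat 2 it was -0.05, and without LLY-283 repeat 2 it was -0.07.

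**Figure D5:**
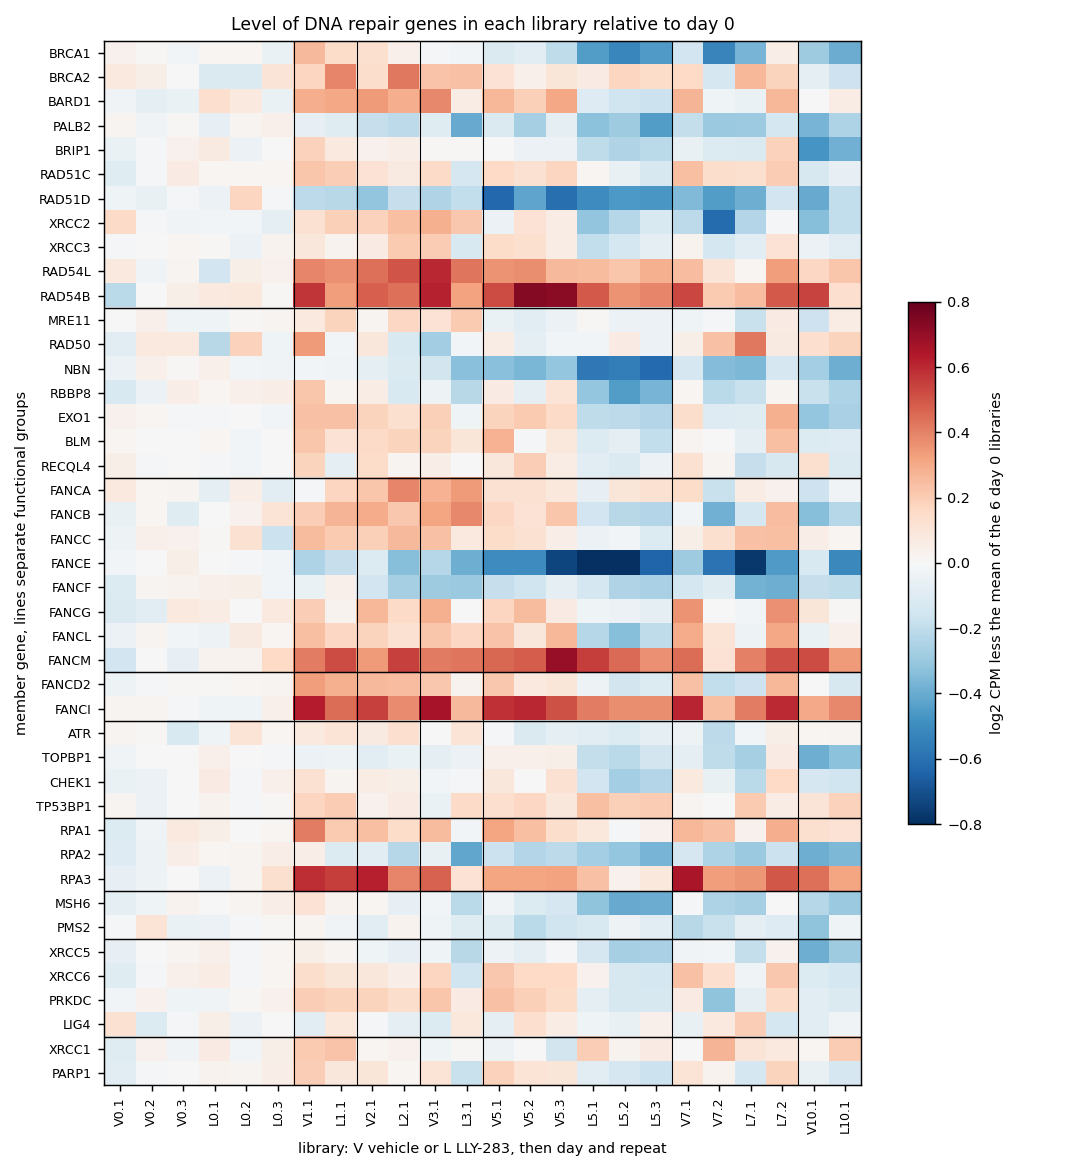
Log2 CPM of each member in each of the 24 libraries, less the mean of the 6 day 0 libraries, with red above and blue below; columns are ordered by day and treatment group (V vehicle, L LLY-283) and lines separate days and roles. FANCI, FANCM and RAD54B are red and FANCE and RAD51D blue in the libraries after day 0, and the columns V7.2 and L7.2 are bluer and redder than their repeat 1 neighbours.

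Other genes of the same pathways give the setting. Of 107 further repair genes, 34 were lower and 10 higher at day 5, with a median log2 fold change of -0.11. Over all genes tested 14.1% were lower and 12% higher, with a median of 0.02. In homologous recombination 9 of 28 were lower and 3 higher, led by the helicase subunit MCM8 (-0.44), the strand annealing protein RAD52 (0.58) and PSMC3IP (-0.71), a cofactor of strand exchange. In the Fanconi pathway 5 of 13 were lower and 2 higher, and UBE2T, the conjugating enzyme that works with FANCL, fell from 108 ± 5.47 CPM to 78.3 ± 3.99 CPM (SD, n = 3; -0.45, edgeR adjusted p = 6.5e-09). USP1, which takes the ubiquitin off again (-0.29), and the ligase RFWD3 (-0.28) were lower as well. Of 17 other checkpoint genes 7 were lower and 2 higher, led by CDC25A (-0.49), TIPIN (-0.54) and CLSPN (-0.39), the last the adaptor of CHEK1. Among 7 other end joining genes 0 were lower and 1 was higher, POLL (0.33), with POLM (0.24) and XRCC4 (-0.23) not past the test. Base excision and single-strand break repair had 7 of 20 lower and 1 higher, led by UNG (-0.48), FEN1 (-0.36) and TDG (-0.31). Nucleotide excision repair had 3 of 18 lower and 2 higher, near the shares over all genes, with a median of 0.03. Among them were DDB2, a p53 target that rose from 46.9 ± 1.71 CPM to 92.4 ± 4.76 CPM (1.01, edgeR adjusted p = 1.4e-14), RAD23B (-0.26) and CETN2 (-0.26).

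Proliferation genes were lower at day 5 as well. Of 30 S phase genes 28 were lower, with a median of -0.33, led by RRM2 (-0.78), MCM4 (-0.47) and POLA1 (-0.57). Of 25 G2/M genes 24 were lower, with a median of -0.30, led by TOP2A (-0.51), ANLN (-0.45) and BIRC5 (-0.40). Of 19 p53 target genes tested 14 were higher, with a median of 0.32, led by DDB2, ZMAT3 (0.64) and CDKN1A (0.50). Over time the S phase genes separated the treatment groups as well, with 9 of 30 higher and 2 lower in vehicle and 1 higher and 26 lower with LLY-283. Over all genes 22.2% were higher and 16.7% lower in vehicle, and 22.9% higher and 19.5% lower with LLY-283. These lists were counted with TMM. With library sizes alone, 3039 of 17106 genes were higher and 20.7% lower in vehicle. Most G2/M genes rose in both treatment groups, with 25 of 25 higher in vehicle and 22 of 25 higher with LLY-283, at medians of 0.72 and 0.47. The part of the cell cycle in the differences of the repair genes was not tested.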

How the data were processed

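Gene expression was measured by RNA-sequencing in 24 libraries. Per the labels and the study's methods, the authors made polyA libraries with a directional kit, pseudoaligned trimmed reads to the human transcriptome (hg38) with kallisto and deposited estimated counts per gene, as whole numbers without normalization; the kallisto version, the transcript annotation and the use of strand are not given in the sources used here. Totals of 13835205 to 23190369 counts set the precision. Day 10 libraries entered no test.

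Tests used edgeR 4.0.16 in R 4.3.3 on these expected counts, with TMM, the filter on low counts by group, robust quasi-likelihood fits within the libraries of each comparison and Benjamini-Hochberg adjustment over all genes tested, with calls at 0.01. SE is the log2 fold change divided by the root of F, and intervals are 95%. Log2 CPM used a prior count of 2. Alternatives were DESeq2 1.42.0, its size factors, library sizes alone, other filters, a block for the repeat number, shared fits, a threshold of 0.05 and leaving out each library. The scripts were tested on simulated data. The members, lists and tests were chosen with earlier results of these data known. Named with their libraries were the 8 largest falls and all rises at day 5 and the member of highest count in each role, and for the changes over time the 5 largest in each direction. For the other lists, they were the 3 genes of smallest p, except that the further mismatch repair genes are not reported here. BRCA2 and the members named for days 3, 7 and 10 were picked after their values were seen. Gene positions and shared exon bases come from a GENCODE annotation of hg38. The same number did not pair libraries: correlations of deviations between same-numbered libraries of days 0 and 5 did not exceed 0.07.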

Additional observations from a re-analysis of the deposited data

Results flagged for a closer look

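The treatment difference at day 5 departed from that at day 0 for 14 members, by the edgeR interaction test at an adjusted p under 0.01 over all genes, and each of the 14 was more negative at day 5. On the log2 scale this was -0.47 for BARD1, -0.45 for RBBP8, -0.44 for FANCL, -0.43 for FANCB, -0.33 for EXO1, -0.31 for CHEK1 and -0.30 for MSH6. It was -0.29 for BRCA1, -0.29 for PARP1, -0.28 for PRKDC, -0.26 for XRCC6, -0.22 for FANCD2, -0.20 for NBN and -0.20 for TOPBP1. No group had more than 3 libraries, so single libraries were not screened for extreme values.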

How the results depend on the processing

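The members lower at day 5 numbered 24 and stayed within 1.5 times of that, from 16 without LLY-283 day 5 repeat 2 to 27 at an adjusted p under 0.05, except in the shared fit of 22 libraries, with 11, where 6.04% of all genes were lower. Members higher at day 5 numbered 0 with DESeq2 and in that shared fit, 2 with library sizes alone and at an adjusted p under 0.05, and 0 to 1 when a library was left out. The share of all genes at an adjusted p under 0.05 is not given here, so the counts at that threshold have none beside them. Of all called genes 53.8% were lower, and 44.7% with library sizes alone. In the fits that left out a library, 10.2% to 15.2% of all genes were lower at day 5. The sign of ATR changed to -0.0054 with DESeq2, -0.0055 with its size factors, -0.0229 in the shared fit of 22 libraries and -0.0045 in the fit of 18, chosen after seeing the data, and lay between -0.0329 and 0.0147 when a library was left out. Leaving out a library gave -0.0094 to 0.0561 for RAD50, -0.0739 to 0.0199 for FANCA, -0.1202 to 0.0075 for FANCM and -0.104 to 0.0096 for LIG4, none of them past the threshold.

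Over time in vehicle, the 5 lower members became 3 with DESeq2 and in both shared fits, 9 with library sizes alone, 8 at 0.05 and 3 to 5 with a library left out (3 without vehicle day 0 repeat 2, day 5 repeat 2 or day 5 repeat 3), and the 15 higher became 9 with library sizes alone, 7 in the shared fit of 22 and 10 to 14 with a library left out (10 without day 0 repeat 2 or day 5 repeat 1). Of all called genes 42.9% were lower there, and 53.8% with library sizes alone. In the shared fit of 22, 3101 of 20756 genes were higher and 9.61% lower, near the shares of the members. With DESeq2 3221 of 17106 genes were higher and 12.4% lower. In the fits that left out a library, 12.4% to 15.0% of all genes were lower. Without day 0 repeat 2, 3303 of 17264 genes were higher, and without day 5 repeat 1, 3470 of 18015. The 14 members of the interaction became 0 in the shared fit of 22, where 0.135% of all genes were lower. They became 22 at 0.05 and 11 to 18 with a library left out, with 0 to 1 higher (1 without LLY-283 day 0 repeat 3). For the vehicle change and the interaction too, the shares of all genes at 0.05 are not given. In the fits that left out a library, 6.03% to 9.09% of all genes were lower. The cause was not tested. With library sizes alone the median member differences of days 1, 2, 3 and 10 were 0.0041, -0.009, -0.0952 and -0.007, against 0.0172, 0.0163, 0.0339 and -0.0149 over all genes. With the repeat number as a replicate block, day 5 gave 24 lower and 1 higher and the interaction 13, and the vehicle and LLY-283 changes gave 5 lower with 13 higher and 19 lower with 6 higher. Of all genes, 14.5% were lower with the block at day 5, 7.19% in the interaction, 16.0% in the vehicle change and 21.3% in the LLY-283 change. At day 7, pairing the libraries with crossed numbers, an alternative chosen after seeing the data, called 36 genes against 0.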
